A study of Mus musculus with 12 samples.

Results

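The choroid plexus marker genes are 10 genes that mark the epithelium of the choroid plexus: Ttr, Aqp1, Clic6, F5, Kl, Slc4a5, Folr1, Kcnj13, Otx2 and Sostdc1. They were taken by symbol from the expression table of a mouse cortex RNA-seq experiment, which held 10 of the 10 genes, with 1 row each, among 23354 symbols. The 12 libraries came from cortices dissected at postnatal day 16 from mice on a C57BL/6 background, in 4 groups of 3 mice. The Dnmt1 CKO (conditional knockout) mice were Olig1cre/+;Dnmt1flox/flox and the Dnmt1 control mice were their Olig1+/+;Dnmt1flox/flox littermates. The Dnmt3a CKO mice were Olig1cre/+;Dnmt3aflox/flox, with Olig1+/+;Dnmt3aflox/flox littermates as Dnmt3a controls. Both alleles of the targeted gene were thus floxed in every mouse of a line, controls included, and the cre was driven from 1 copy of the Olig1 locus, which is used by the oligodendrocyte lineage, so that by design other cells of the cortex keep the targeted gene. The comparison of each CKO with its controls asked which cortical transcripts depend on DNMT1, the maintenance DNA methyltransferase, or on DNMT3A, a de novo DNA methyltransferase.

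The choroid plexus is a fold of vascular tissue in the brain ventricles. Its single layer of epithelial cells secretes the cerebrospinal fluid, closes the barrier between blood and fluid with tight junctions, and carries hormones, vitamins and ions across. It is continuous with the ependyma, the ciliated cell layer that lines the ventricles, and neither is a part of the cortical gray or white matter. The marker genes fall into carriers (Ttr, Folr1), channels and ion transporters (Aqp1, Slc4a5, Kcnj13, Clic6), proteins that are secreted or shed (Kl, Sostdc1, F5) and the transcription factor Otx2. A level in bulk tissue sums over all cells of the sample, so that more choroid plexus cells and more RNA of a gene per cell cannot be told apart here.

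Levels are given in FPKM (fragments scaled by the length of the transcript and by the size of the library), so that genes can be compared with each other. The FPKM of a library summed to between 342274 and 417856, with the highest sum in Dnmt3a control 3 and the next (374685) in Dnmt3a CKO 2. The steps between low values put the relative depth of the libraries between 0.8586 and 1. In the check of the labels, Dnmt1 was 10.2 ± 0.435 FPKM (SD, n = 3) in the Dnmt1 controls and 8.49 ± 1.06 FPKM (SD, n = 3) in the Dnmt1 CKO. Dnmt3a stood at 31.1, 16.9 and 28.7 FPKM in Dnmt3a controls 1, 2 and 3, and at 13.6, 14.2 and 15.4 FPKM in the Dnmt3a CKO. The library labelled Dnmt3a control 2 was thus nearer in the targeted gene to the CKO group than to the rest of its own group, and the fold changes of the marker genes, the order of the group means and the signs in each gene list are given with and without it. Olig1 was 46.5 FPKM in the Dnmt1 controls and 20.3 FPKM in the Dnmt1 CKO, and 47.4 and 33.9 FPKM in the Dnmt3a controls and CKO. The 13 listed markers of cortical excitatory neurons were all detected, and their summed level lay between 1038 and 1165 FPKM in the 12 libraries. A pair of libraries stood apart in the choroid plexus marker genes themselves, Dnmt3a control 3 and Dnmt3a CKO 3. The spread, the fold changes of the marker genes, the order of the group means and the signs in each gene list are given without them as well. The relation to Ttr is given only without them.

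Ttr encodes transthyretin, the carrier of thyroid hormone and retinol that choroid plexus epithelium secretes into the cerebrospinal fluid. It was read at 267, 115 and 163 FPKM in Dnmt1 controls 1, 2 and 3, and at 241, 218 and 80.7 FPKM in Dnmt1 CKO 1, 2 and 3. The Dnmt3a line gave 101, 120.4 and 4.57 FPKM for the control mice and 287, 408 and 1.94 FPKM for the CKO mice. Replicate 3 of each Dnmt3a group was far below all 10 other libraries, and the other two Dnmt3a CKO libraries were the highest of the 12. With a mean of 167 FPKM over the 12 libraries Ttr was also by far the most abundant marker, since the means of the other 9 lay between 0.330 and 1.81 FPKM. Folr1, the folate receptor that takes folate across the epithelium, was read at 2.42, 1.06 and 1.58 FPKM in the Dnmt1 controls and at 2.43, 1.505 and 0.884 FPKM in the Dnmt1 CKO. It was read at 0.783, 0.506 and 0.287 FPKM in the Dnmt3a controls and at 2.56, 3.57 and 0.283 FPKM in the Dnmt3a CKO. Folr1 had the same low level in both replicates 3 of the Dnmt3a line, and Dnmt3a controls 1 and 2 were also below every library of the Dnmt1 line.

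**Figure D1:**
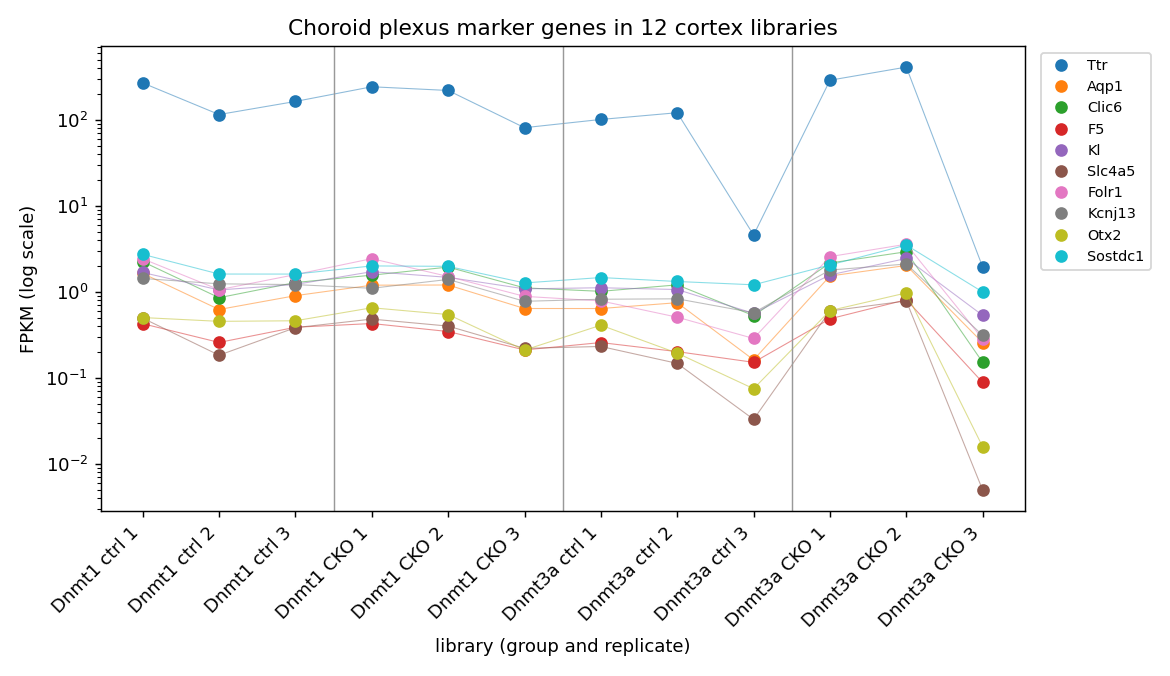
Level of each of the 10 choroid plexus marker genes in FPKM (log scale) in each of the 12 libraries, with 1 point per gene and library and thin lines that only join the points of a gene. The points of nearly all genes move up and down together, from a peak in Dnmt3a CKO 2 (Ttr at 408 FPKM) to a trough in Dnmt3a CKO 3 (Ttr at 1.94 FPKM).

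Among the channels and ion transporters, Aqp1 encodes the water channel of the apical membrane. It was read at 1.63, 0.622 and 0.901 FPKM in the Dnmt1 controls and at 1.19, 1.20 and 0.639 FPKM in the Dnmt1 CKO. The Dnmt3a controls gave 0.639, 0.747 and 0.162 FPKM and the Dnmt3a CKO 1.53, 2.02 and 0.256 FPKM, so that Aqp1 had its lowest level in Dnmt3a control 3. Kcnj13 encodes the inward rectifier potassium channel Kir7.1. It was read at 1.43, 1.24 and 1.21 FPKM in the Dnmt1 controls and at 1.10, 1.39 and 0.775 FPKM in the Dnmt1 CKO. The values of the Dnmt3a line were 0.819, 0.828 and 0.571 FPKM in the controls and 1.79, 2.10 and 0.312 FPKM in the CKO, and again the CKO held both the highest libraries and the lowest. Slc4a5, a sodium bicarbonate cotransporter, ran from 0.183 to 0.494 FPKM in the Dnmt1 line, with 0.231, 0.147 and 0.0329 FPKM in the Dnmt3a controls and 0.599, 0.782 and 0.00496 FPKM in the Dnmt3a CKO. Its level in Dnmt3a CKO 3 was 1.62% of its median over the 12 libraries, a value close to 0 FPKM. Clic6, of the chloride intracellular channel family, ran from 0.853 to 2.24 FPKM in the Dnmt1 line, with 1.012, 1.20 and 0.528 FPKM in the Dnmt3a controls and 2.16, 2.92 and 0.151 FPKM in the Dnmt3a CKO. The highest level was 157.7 times the lowest for Slc4a5, 19.3 times for Clic6, 12.5 times for Aqp1 and 6.74 times for Kcnj13. The ratio of Slc4a5 rests on its value near 0, and on FPKM + 0.1 it was 8.41, below that of Clic6 (12.01).

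Among the genes of secreted and shed proteins, Kl encodes Klotho, the co-receptor of the hormone FGF23, whose outer part is shed into the cerebrospinal fluid. It ran from 1.05 to 1.71 FPKM in the Dnmt1 line, with 1.11, 1.06 and 0.561 FPKM in the Dnmt3a controls and 1.57, 2.44 and 0.532 FPKM in the Dnmt3a CKO. Sostdc1, a secreted antagonist of BMP and Wnt signals, ran from 1.27 to 2.72 FPKM in the Dnmt1 line, with 1.46, 1.32 and 1.21 FPKM in the Dnmt3a controls and 2.05, 3.49 and 0.993 FPKM in the Dnmt3a CKO. F5 encodes coagulation factor V and ran from 0.211 to 0.428 FPKM in the Dnmt1 line, with 0.257, 0.202 and 0.151 FPKM in the Dnmt3a controls and 0.485, 0.809 and 0.0883 FPKM in the Dnmt3a CKO. The ratio of the highest to the lowest level was 3.51 for Sostdc1, 4.59 for Kl and 9.16 for F5, against 210.9 for Ttr. On FPKM + 0.1 these ratios were 3.28, 4.02, 4.83 and 200.6.

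Otx2, the homeodomain transcription factor that choroid plexus development requires, was read at 0.502, 0.453 and 0.460 FPKM in the Dnmt1 controls and at 0.652, 0.544 and 0.210 FPKM in the Dnmt1 CKO. The Dnmt3a line gave 0.409, 0.194 and 0.0748 FPKM for the control mice and 0.604, 0.970 and 0.0158 FPKM for the CKO mice. The order of the libraries was thus much like that of Ttr, with a ratio of 61.4 between Dnmt3a CKO 2 and Dnmt3a CKO 3 (9.24 on FPKM + 0.1).

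The promoter windows of Aqp1, Kcnj13 and Otx2 are shown because CG dinucleotides are the sites that DNMT1 and DNMT3A methylate, and because OTX2, like other homeodomain proteins of its class, binds the letters TAATCC. The windows run from 250 bases before to 50 bases after a gene start in RefSeq (GRCm38.p6), 5′ to 3′ on the strand of the gene, with every CG in capitals. The Aqp1 window is chr6:55336049-55336348 on the plus strand, the Kcnj13 window is chr1:87394680-87394979 on the minus strand, and the Otx2 window, for 1 of its 4 listed starts, is chr14:48665060-48665359 on the minus strand.
Aqp1: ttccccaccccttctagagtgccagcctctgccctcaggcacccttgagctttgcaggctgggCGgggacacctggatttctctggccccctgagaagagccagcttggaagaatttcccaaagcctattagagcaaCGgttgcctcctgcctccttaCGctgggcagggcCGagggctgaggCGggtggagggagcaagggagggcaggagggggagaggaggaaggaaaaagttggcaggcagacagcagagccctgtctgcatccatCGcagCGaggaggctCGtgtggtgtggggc
Kcnj13: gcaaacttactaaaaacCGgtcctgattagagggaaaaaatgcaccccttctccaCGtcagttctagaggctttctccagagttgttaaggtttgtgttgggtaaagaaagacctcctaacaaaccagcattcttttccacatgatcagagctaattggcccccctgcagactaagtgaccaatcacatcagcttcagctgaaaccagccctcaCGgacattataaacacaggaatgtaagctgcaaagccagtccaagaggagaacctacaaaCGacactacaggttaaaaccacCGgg
Otx2: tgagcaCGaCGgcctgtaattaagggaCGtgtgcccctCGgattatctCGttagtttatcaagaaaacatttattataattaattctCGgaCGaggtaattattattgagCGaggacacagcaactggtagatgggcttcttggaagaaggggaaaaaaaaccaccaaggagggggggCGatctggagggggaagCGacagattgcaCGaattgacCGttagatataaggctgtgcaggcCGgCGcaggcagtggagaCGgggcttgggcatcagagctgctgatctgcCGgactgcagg
There are 8 CG sites in the Aqp1 window, 5 in the Kcnj13 window and 16 in the Otx2 window, against a median of 7 over 32851 windows of the same length. The Otx2 window shown holds the most CG sites of its 4 windows, and those at the other listed starts hold 6, 8 and 11. Windows were found for 6 of the 10 genes (9 windows, also for Kl, F5 and Slc4a5), with 4 CG sites for F5, 6 for Slc4a5 and 19 for Kl. TAATCC was searched on both strands. It was present in 1 of the 9 windows, the Otx2 window shown, where it reads GGATTA on the printed strand, and in 7.06% of all windows. These counts describe the letters only, since neither methylation nor binding was measured.

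In the GENCODE M21 annotation of GRCm38 (mm10), the 4 exons of Aqp1 span chromosome 6 from 55336432 to 55348555 (plus strand). Kcnj13 lies on chromosome 1 from 87386363 to 87394729 on the minus strand, and its exons overlap exons of Gigyf2, a protein-coding gene of the opposite strand. Otx2 lies on chromosome 14 from 48657677 to 48673819 on the minus strand and overlaps exons of the antisense lincRNA Otx2os1 and of Gm49154. Folr1 lies on chromosome 7 from 101858331 to 101870788 on the minus strand, Kl on chromosome 5 from 150952607 to 150993817, Slc4a5 on chromosome 6 from 83219828 to 83304945, and Clic6 on chromosome 16 from 92485736 to 92541243. F5, whose exons overlap the antisense lincRNA Gm16548, lies on chromosome 1 from 164151838 to 164220277, and Sostdc1 on chromosome 12 from 36314139 to 36318452. The use of strand in the counting is not given in the sources used here, and without it reads of Kcnj13, Otx2 and F5 cannot be told apart from those of the overlapping genes.

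The 10 genes shared the same extremes. Dnmt3a CKO 2 had the highest level of the 12 libraries for 10 of 10 genes. Dnmt3a CKO 3 had the lowest level for 9 genes and Dnmt3a control 3 for Aqp1, and for each gene these were the lowest and second lowest libraries. How far below the median they lay differed between the genes. In Dnmt3a CKO 3 the level was 1.37% of the median over the 12 libraries for Ttr, 3.46% for Otx2, 12.2% for Clic6 and 22.1% for Folr1, but 45.6% for Kl and 61.8% for Sostdc1. In Dnmt3a control 3 it was 3.23% for Ttr, 10.7% for Slc4a5, 16.4% for Otx2 and 19.6% for Aqp1, against 48.1% for Kl and 75.0% for Sostdc1. Ttr, Slc4a5 and Otx2 thus lay furthest below their medians, and Sostdc1 least far, in both libraries, although the lowest values of Slc4a5 and Otx2 were close to 0 FPKM.

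The order of the group means was alike for the 10 genes. The Dnmt3a controls had the lowest mean and the Dnmt3a CKO the highest for 10 of 10 genes, and in between the Dnmt1 CKO mean was below the Dnmt1 control mean for 7 genes and above it for 3. The genes move together between libraries, so these orders are not 10 separate observations, also where libraries are left out. The share of all rows with the same order was not computed. For Ttr the means were 75.2 ± 62.0 FPKM in the Dnmt3a controls, 180.1 ± 86.8 FPKM in the Dnmt1 CKO, 182 ± 78.0 FPKM in the Dnmt1 controls and 233 ± 209 FPKM in the Dnmt3a CKO (SD, n = 3 each). Of the 30 pairs of neighbours in these orders, the values of 29 overlapped, and the means of 21 differed by no more than the larger SD of the pair. The other 9 were the step from the Dnmt3a controls to the next group, in every gene but Clic6. The pair that did not overlap was Folr1 in the Dnmt3a controls (0.525 ± 0.249 FPKM) and the Dnmt1 CKO (1.61 ± 0.776 FPKM), groups of separate lines. The shares of all rows with such overlaps or such steps were not computed, so these counts do not set the marker genes apart from other rows. Without Dnmt3a control 3 and Dnmt3a CKO 3, and also without Dnmt3a control 2, the Dnmt3a controls had the lowest mean and the Dnmt3a CKO the highest for 10 of 10 genes. The mean of Ttr in the Dnmt3a controls and CKO was 110.5 and 348 FPKM without both replicates 3, and 52.6 and 232.5 FPKM without Dnmt3a control 2.

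The marker genes varied far more between mice of a group than most transcripts. Within groups, the SD of log2(FPKM + 0.1) was 2.57 for Ttr, 1.09 for Clic6, 1.03 for Folr1, 0.924 for Aqp1, 0.711 for Kcnj13, 0.613 for Kl and 0.514 for Sostdc1. The median over all 14115 rows tested, those with a mean of at least 0.5 FPKM, was 0.0903, and between 97.6% and 98.6% of rows lay below these 7 genes. With a pseudocount of 1 in place of 0.1, the median SD was 0.428 for the 7 genes and 0.0759 for all rows. Rows of any level are among all rows, and a comparison with rows of similar level was not made. F5, Otx2 and Slc4a5 had means under 0.5 FPKM and were not among the rows tested. The spread was not limited to the Dnmt3a line: the median SD of the 7 genes was 0.560 in the Dnmt1 controls, 0.387 in the Dnmt1 CKO, 0.554 in the Dnmt3a controls and 1.39 in the Dnmt3a CKO, against 0.0702 to 0.0863 for all rows in these groups. Without Dnmt3a control 3 and Dnmt3a CKO 3, the SD was 0.637 for Ttr, 0.549 for Folr1, 0.474 for Aqp1 and 0.242 for Kcnj13. The median of the 7 genes was then 0.456, against 0.0867 for all rows, and 92.7% (Kcnj13) to 98.2% (Ttr) of rows lay below these genes. The median SD in the Dnmt3a CKO was 0.327 and in the Dnmt3a controls 0.139 without them.

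**Figure D2:**
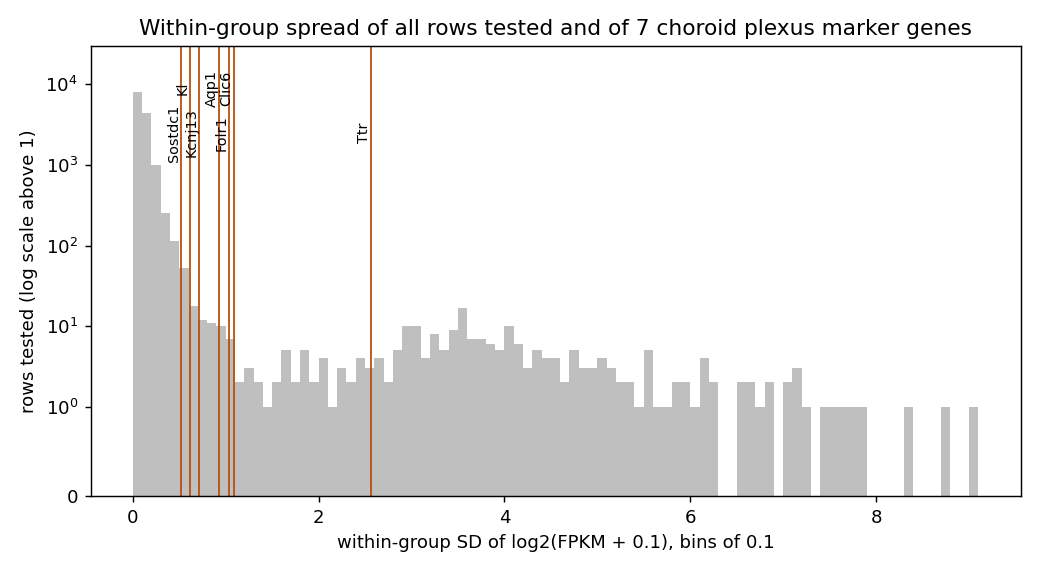
Histogram of the within-group SD of log2(FPKM + 0.1) over the 14115 rows tested (x axis, bins of 0.1; y axis, number of rows on a scale that is logarithmic above 1), with a vertical line for each of the 7 choroid plexus marker genes tested. All 7 lines lie to the right of the bulk of the rows, from 0.514 for Sostdc1 to 2.57 for Ttr, and rows with still larger SD make up the tail.

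The genes also moved together between libraries. The libraries formed separate sets in Ttr, since the largest gap between neighbours, 17.7-fold, separated both replicates 3 of the Dnmt3a line (4.57 FPKM at most) from the 10 others (80.7 FPKM at least). Relations to Ttr were therefore computed over the 10 libraries above the gap, among which Ttr ranged 5.06-fold. Aqp1 followed Ttr most closely, with Pearson's r = 0.975 (permutation p = 2e-05, two-sided, 100000 resamples) and Spearman's rho = 0.927 (permutation p = 0.00034). Otx2 followed it least closely, with r = 0.850 (permutation p = 0.00079) and rho = 0.867 (permutation p = 0.0018). The other 7 genes lay in between, with r from 0.893 (Kcnj13) to 0.937 (Kl) and rho from 0.855 (Kl) to 0.927 (Clic6 and Sostdc1). In all, 9 relations were computed.

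The relation did not rest on the libraries at the ends for most genes. Without the 2 libraries farthest from the median of Ttr (n = 8), r was 0.979 for Aqp1 and 0.949 for Kl, but 0.787 for Kcnj13 and 0.674 for Otx2. With the group means removed, r over the 10 libraries was 0.948 for Aqp1 (permutation p = 2e-05), 0.871 for Clic6 (permutation p = 0.0012) and 0.852 for Sostdc1 (permutation p = 0.0017). These r describe how the genes moved among mice of a group. The p-values of centred levels are too small, since the 2 libraries of each Dnmt3a group become mirror images and values were permuted across groups. With group means removed, the relation was weakest for Otx2, with r = 0.702 (permutation p = 0.023), rho = 0.612 (permutation p = 0.067) and r = 0.429 without the 2 farthest libraries. Over the 45 pairs of marker genes the median r was 0.900, from 0.686 (Clic6 and Otx2) to 0.980 (Aqp1 and Clic6). Over all rows tested the median r with Ttr was 0.155, and 160 rows (1.13%) reached 0.8.

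**Figure D3:**
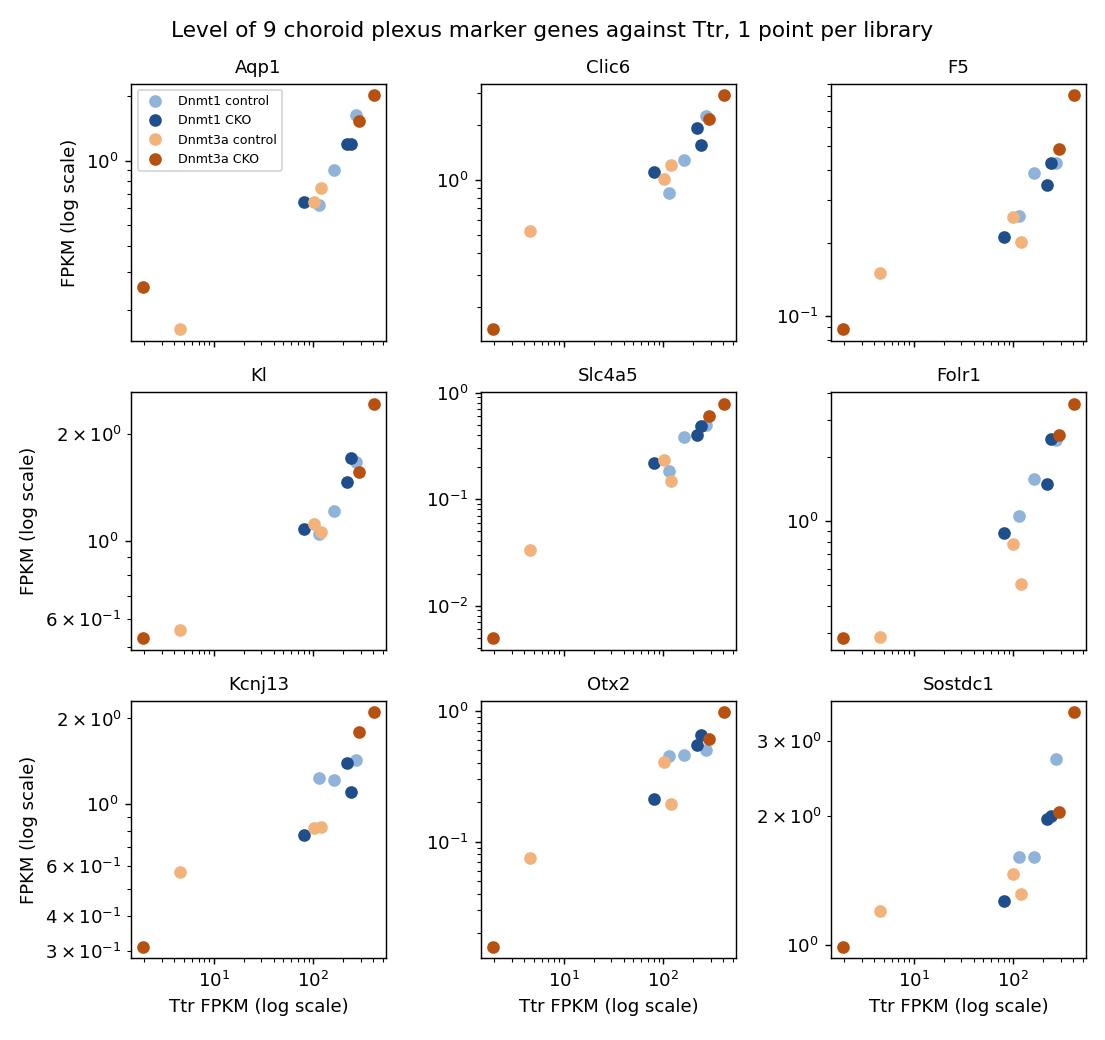
Level of 9 choroid plexus marker genes in FPKM (y axes, log scale) against the level of Ttr in FPKM (x axes, log scale), with 1 point per library coloured by group. The 10 libraries with Ttr of at least 80.7 FPKM rise along a line in each panel, most tightly for Aqp1 (r = 0.975), and the 2 points at the lower left are Dnmt3a control 3 and Dnmt3a CKO 3.

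The rows most like the marker genes were ranked, as a description, by Pearson's r over the 12 libraries to the mean of the 10 centred log2 levels. Among the 10 highest rows that are no members were 1500015O10Rik (r = 0.989), Cldn2 (0.976), Slc2a12 (0.968), Col8a2 (0.967), Wfikkn2 (0.950), Defb11 (0.927), Trpm3 (0.920), Slc22a17 (0.906) and Cldn1 (0.902). Cldn2 encodes a claudin of the leaky tight junctions of choroid plexus epithelium, and its level was 0.0643 FPKM in Dnmt3a control 3 and 0.0679 FPKM in Dnmt3a CKO 3, against 0.384 to 0.999 FPKM in the other 10 libraries. 1500015O10Rik, also called Ecrg4, stood at 1.68 FPKM in Dnmt3a control 3, at 0.887 FPKM in Dnmt3a CKO 3 and at 7.86 FPKM in Dnmt3a CKO 2. Defb11, of the beta-defensin family, was listed at 0 in both replicates 3 of the Dnmt3a line and at 2.36 FPKM in Dnmt3a CKO 2. Not all of these rows had large changes in level. Slc22a17 ran from 179.5 to 210.5 FPKM, so that its level followed the order of the marker genes within a narrow range. Over the 10 libraries with high Ttr, r was 0.984 for 1500015O10Rik, 0.982 for Col8a2 and 0.944 for Cldn2, and 0.762 for Defb11.

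A longer list of 53 other genes of choroid plexus epithelium, of which 51 were in the table and 37 were tested, moved in part with the marker genes. The list was written with earlier results of these data known, so its shares are a description and not a test. Of the 37, 11 had r of at least 0.8 to the mean of the marker genes over the 12 libraries (29.7%, against 0.645% of the other rows tested), and their median r was 0.649, against 0.127 for all other rows. Over the 10 libraries without Dnmt3a control 3 and Dnmt3a CKO 3, 6 of the 37 did (16.2%, against 1.07% of the other rows), with a median r of 0.586, against 0.144. Of the 11 genes over the 12 libraries, 6 are among the rows named above, and the other 5 were Ace, which encodes angiotensin-converting enzyme, Col8a1, Calml4, Lbp and the cation channel gene Trpv4. The most abundant genes of the list followed less closely. Enpp2, which encodes autotaxin, had r = 0.676 and ran from 54.5 to 129.8 FPKM, and Igf2 had r = 0.742 and ran from 22.0 to 33.9 FPKM. Slc12a2, which encodes the cotransporter NKCC1, is used by many cell types of the brain and had r of -0.00797. The summed level of the list was 282.6 to 329 FPKM in the Dnmt1 controls, 247.8 to 289 FPKM in the Dnmt1 CKO, 251 to 281 FPKM in the Dnmt3a controls and 239.5 to 379 FPKM in the Dnmt3a CKO.

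In the Dnmt1 line the marker genes did not differ between CKO and control mice beyond the spread. Ttr had a log2 fold change (CKO minus control, on log2(FPKM + 0.1)) of -0.08 (SE 0.508, 95% confidence interval -1.32 to 1.17, adjusted p = 0.972, limma), and Kcnj13, the gene with the lowest adjusted p, one of -0.26 (SE 0.20, interval -0.75 to 0.23, adjusted p = 0.618, limma). The interval of Ttr thus holds both a fall and a rise by more than 1 on the log2 scale. Of the 7 genes tested, 0 passed the 10% FDR, against 3.15% of all rows tested, and 0 had an unadjusted p under 0.05, against 15.0% of all rows. In 0 of 7 genes were the CKO and control values free of overlap, against 20.8% of all rows. The log2 fold change was positive for 2 of 7 genes (41.1% of all rows), Clic6 (0.14) and Kl (0.11), and -0.10 for Folr1, -0.16 for Sostdc1 and -0.0049 for Aqp1. Its median was -0.08 for the 7 genes and -0.02 for all rows. In a fit with a minimum mean of 0.1 FPKM, it was -0.11 for F5, 0.06 for Slc4a5 and -0.10 for Otx2.

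In the Dnmt3a line all marker genes had a higher mean log2 level in the CKO, but the mice of each group differed widely and no gene was called. Folr1 had the largest log2 fold change, 1.39 (SE 0.882, 95% confidence interval -0.77 to 3.55, adjusted p = 0.75, limma). Ttr had 0.69 (SE 2.37, interval -5.13 to 6.51, adjusted p = 0.961, limma), an interval that spans both a large fall and a large rise. Aqp1 had 0.97, Kcnj13 0.53, Sostdc1 0.52, Kl 0.51 and Clic6 0.30, all positive (7 of 7 tested, and 10 of 10 with Slc4a5 at 0.86, F5 at 0.63 and Otx2 at 0.58 in the fit with a minimum mean of 0.1 FPKM). Of all rows tested, 53.0% were positive, and the marker genes move together, so their signs are not separate observations. By limma, 0 of 7 genes passed the 10% FDR, against 0.0142% of all rows (2 rows), and 0 had an unadjusted p under 0.05, against 7.35% of all rows. In 0 of 7 genes were the groups free of overlap, against 12.8% of all rows. The median log2 fold change was 0.53 for the 7 genes and 0.01 for all rows, and the median SE was 0.791 and 0.0721.

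These values depended on replicates 3. Without the 2 libraries Dnmt3a control 3 and Dnmt3a CKO 3, a choice made after the values were seen, 2 mice per group remained, and for 10 of 10 marker genes both CKO libraries were above both control libraries. The same was true of 27% of all rows tested (3811 rows). Both replicates 3 were left out for their level of these same genes, which narrows the spread within groups. The genes also move together (median r of 0.900 over pairs), so counts of them are not separate observations. The intervals and p-values without replicates 3 therefore do not test a CKO effect. Ttr then had a log2 fold change of 1.64 (SE 0.203, 95% confidence interval 1.08 to 2.20), Folr1 2.09 (SE 0.265, interval 1.36 to 2.83), Aqp1 1.23 and Kcnj13 1.14 (SE 0.118, interval 0.82 to 1.47). Of the 7 genes, 7 had an unadjusted p under 0.05, against 9.34% of all rows, but 0 passed the 10% FDR, with a lowest adjusted p of 0.529 by limma. Without Dnmt3a CKO 3 alone, the median log2 fold change of the 7 genes was 1.43 and 6 had an unadjusted p under 0.05 (12.3% of all rows), with 0 past the FDR and a lowest adjusted p of 0.350 by limma. Without Dnmt3a control 3 alone, 5 of 7 log2 fold changes were positive and that of Ttr was -0.83, with the share of all rows not computed. Without Dnmt3a control 2, the library whose Dnmt3a level goes against its label, 7 of 7 were positive (53.7% of all rows). Their median was 0.63, and 0 passed. Over all alternatives run, the adjusted p by limma was 0.469 to 1 for Ttr and 0.350 to 0.919 for Folr1.

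**Figure D4:**
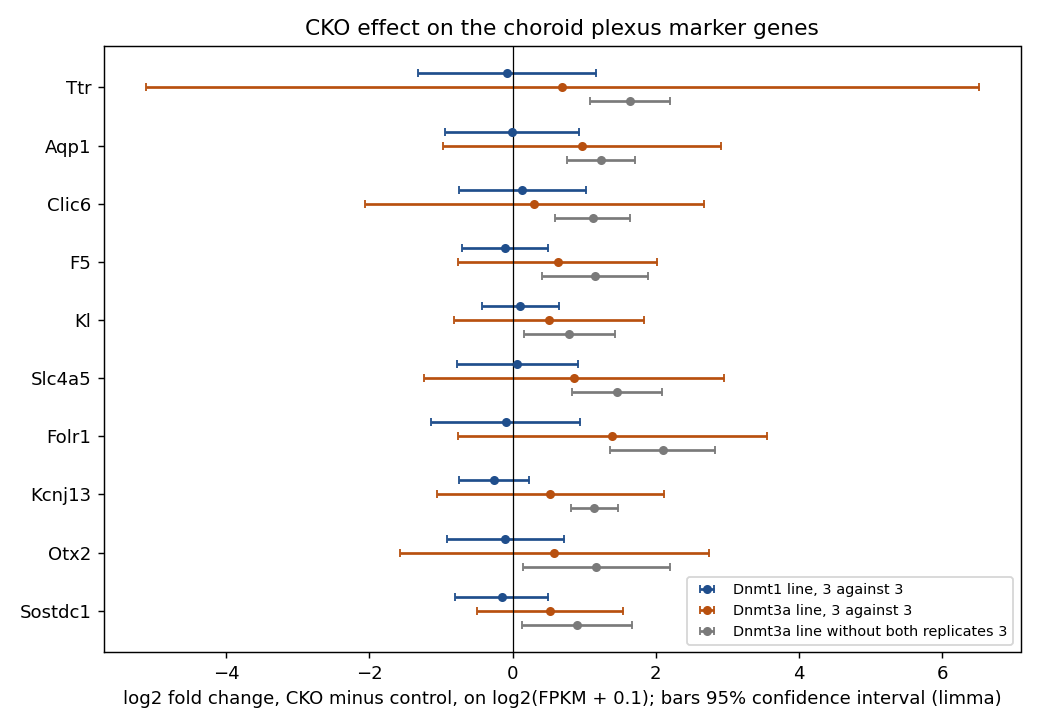
Log2 fold change of each choroid plexus marker gene, CKO minus control, on log2(FPKM + 0.1) with 95% confidence intervals from limma, for the Dnmt1 line, the Dnmt3a line, and the Dnmt3a line without Dnmt3a control 3 and Dnmt3a CKO 3. Intervals of both full comparisons cross 0 for all 10 genes, with the widest for Ttr in the Dnmt3a line (-5.13 to 6.51). Those without both replicates 3, which were left out for their level of these genes, lie above 0.

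The CKO effect was then compared between the lines, by an interaction contrast fitted to the 12 libraries. The difference (Dnmt1 line minus Dnmt3a line) was negative for 7 of 7 genes, from -0.17 for Clic6 to -1.49 for Folr1 (SE 1.02, 95% confidence interval -3.73 to 0.75, adjusted p = 0.668, limma), with -0.77 for Ttr and -0.79 for Kcnj13. Among all rows it was positive for 41.2%, so most rows were negative as well. By limma, 0 of 7 passed the 10% FDR, against 2.13% of all rows, and 0 had an unadjusted p under 0.05, against 10.6% of all rows. Without Dnmt3a CKO 3, 2 genes passed, Kcnj13 (-1.56, SE 0.296, adjusted p = 0.0325, limma) and Folr1 (-2.50, SE 0.605, adjusted p = 0.0912, limma), and 2.34% of all rows did. Without both replicates 3 of the Dnmt3a line, Kcnj13 alone passed (-1.40, adjusted p = 0.0633, limma), with 1.79% of all rows. Both libraries stood apart in these same genes, so the fits without them are no separate test of a difference. Leaving out any other single library left 0 genes past the FDR. With Dnmt3a control 2, Dnmt3a control 3, Dnmt3a CKO 3 or both replicates 3 left out, the adjusted p by limma ran from 0.0325 to 0.833 for Kcnj13 and from 0.0912 to 0.764 for Folr1.

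Of the 37 other choroid plexus genes tested, 1 rose and 1 fell in the Dnmt1 CKO, against 3.15% of all rows called, and 3 were higher and 7 lower at an unadjusted p under 0.05 (27.03%, against 15.0% of all rows). Ezr, which encodes the membrane linker ezrin, rose by 0.23 on the log2 scale (adjusted p = 0.0985, limma), and Slc12a2 fell by 0.60 (adjusted p = 0.00479, limma), with 12.02 to 13.1 FPKM among the controls and 7.99 to 8.43 FPKM among the CKO mice. Neither followed the marker genes closely (r = 0.649 for Ezr). Of the 7 lower genes, Slco1c1 (r = -0.054), Atp11a (-0.053), Car14 (0.227) and Cgnl1 (0.234) hardly followed them either. Car12 (0.795) and Enpp2 (0.676) followed them more closely. In the Dnmt3a line 0 of the 37 passed by limma and 3 had an unadjusted p under 0.05 (8.11%, against 7.35% of all rows). The log2 fold change was positive for 30 of 37 (81.1%, against 53.02% of all rows), with a median of 0.16. It was positive for 33 without both replicates 3 (58.8% of all rows), with a median of 0.31, and for 30 without Dnmt3a control 2, with a median of 0.20. The difference between the lines passed for Slc12a2 (-0.61, adjusted p = 0.0133, limma).

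Markers of other cells and of neighbouring tissues were summed to see what else moved. Of the ependyma markers 14 of 25 were tested and 0 had r of at least 0.8 to the marker genes. The sum of the 21 ependyma markers found was 61.9 to 62.6 FPKM in the Dnmt1 controls, 51.0 to 59.2 FPKM in the Dnmt1 CKO, 58.6 to 64.8 FPKM in the Dnmt3a controls and 66.4 to 76.7 FPKM in the Dnmt3a CKO. Pvalb, which interneurons also express, made up 29.8 of the 68.6 FPKM in Dnmt3a CKO 3 and reached 25.3 to 29.8 FPKM in the Dnmt3a CKO, against 14.1 to 22.2 FPKM in the other groups. Without Pvalb the sum was 37.6 to 45.4 FPKM in the Dnmt3a controls and 38.8 to 51.3 FPKM in the Dnmt3a CKO. In Dnmt3a CKO 3 it was then the third lowest of the 12. Of this sum Pltp alone made up 21.1 FPKM in Dnmt3a CKO 3, and it ran from 19.2 to 26.8 FPKM over the 12 libraries. Foxj1 (1.65 FPKM) and Rsph4a (0.679 FPKM), genes of motile cilia, had their lowest level in Dnmt3a CKO 3. The other ependyma markers tested did not. Fam183b stood there at 1.67 FPKM, against a mean of 1.41 FPKM over the 12 libraries, and Rsph1 at 1.83 FPKM, against 1.82 FPKM. The blood markers (7 found of 9, 5 tested) summed to 35.3 to 47.5 FPKM in the Dnmt1 controls, 26.5 to 31.4 FPKM in the Dnmt1 CKO, 25.0 to 31.1 FPKM in the Dnmt3a controls and 30.5 to 41.2 FPKM in the Dnmt3a CKO, with the lowest sum in Dnmt3a control 3. Of these sums Bpgm alone, with r = 0.145 to the marker genes, made up 16.0 to 20.3 FPKM. The median r of the 5 blood markers tested to the marker genes was 0.585 (0.406 over the 10 libraries with high Ttr), highest for Alas2 (0.742), an enzyme of heme synthesis in red cell precursors. Their median log2 fold change was -0.72 in the Dnmt1 line and 0.58 in the Dnmt3a line, with 0 called by limma. At an unadjusted p under 0.05 there were 4 in the Dnmt1 line, all lower (80%, against 15.0% of all rows). In the Dnmt3a line there were 0, against 7.35% of all rows. Striatum markers, led by Ppp1r1b, summed to 175 to 353 FPKM with a median r of 0.292 (0.428 over the 10 libraries), and 0 of 13 passed by limma in either line, with 0 at an unadjusted p under 0.05. Of the 12 tested markers of thalamus and hypothalamus, which had a median r of 0.468, Calb2 had r = 0.802 over the 12 libraries and 0.336 over the 10 with high Ttr, and 0 passed by limma in either line, with 3 (all lower) and 0 at an unadjusted p under 0.05. For the striatum and the thalamus and hypothalamus lists, the share of all rows at such a p was 15.0% in the Dnmt1 line and 7.35% in the Dnmt3a line. What part blood, ventricle lining or neighbouring regions had in the level of the marker genes was not tested.

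The remaining lists had a median r between -0.173 (oligodendrocytes) and 0.307 (hippocampus) and held 0 genes with r of at least 0.8. In the Dnmt1 line 10 of 10 oligodendrocyte genes fell, with a median log2 fold change of -1.99 and Opalin lowest at -2.45 (adjusted p = 0.00234, limma), while 0 of 10 passed in the Dnmt3a line (median 0.05). Over all rows 3.15% passed in the Dnmt1 line and 0.0142% in the Dnmt3a line. Also in the Dnmt1 line, Acta2 (-0.47) and Pvalb (-0.27), 2 of the 14 ependyma list genes that also mark vascular smooth muscle and interneurons, fell, as did Pdgfra (-0.30), 1 of 18 meninges and fibroblast list genes that also marks oligodendrocyte progenitors. Slc2a1 (0.44) of 14 endothelium genes, Grp (0.28) of 14 hippocampus genes, Gfap (0.45) of 9 astrocyte genes, and C1qb (0.42), C1qa (0.34) and C1qc (0.27) of 10 microglia genes rose in the Dnmt1 CKO. Of 13 cortical excitatory neuron genes, 0 passed by limma in the Dnmt1 line, and 0 had an unadjusted p under 0.05, against 15.0% of all rows. In the Dnmt3a line 0 genes of any of these lists passed by limma. An unadjusted p under 0.05 was found for 2 genes each of the ependyma (14.3%), endothelium (14.3%), cortical excitatory neuron (15.4%) and astrocyte (22.2%) lists. It was found for 3 of the meninges and fibroblast list (16.7%) and for 0 of the hippocampus, microglia and oligodendrocyte lists, against 7.35% of all rows. Without Dnmt3a control 3 and Dnmt3a CKO 3 the median log2 fold change in the Dnmt3a line changed sign for the striatum list, from -0.05 (4 of 13 positive, against 53.0% of all rows) to 0.37 (12 of 13, against 58.8% of all rows), for the meninges and fibroblast list, from -0.08 to 0.05, and for the hippocampus list, from -0.04 to 0.01. Without Dnmt3a control 2 it changed sign for the ependyma list (0.00018 to -0.05) and for that of thalamus and hypothalamus (0.10 to -0.03).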

How the data were processed

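RNA-seq of 12 mouse cortices (about 250 ng of total RNA each, TruSeq RNA kit) was analysed. The values deposited by the authors are FPKM per gene symbol, made with TopHat alignment to mm10 and Cufflinks. Versions and any further scaling between libraries are not given in the sources used here. Read numbers are unknown, so no counting error was computed. Between 120 and 136 rows per library stand at 0 although their mean over the libraries is above 5 FPKM, so an exact 0 may be a failed estimate.

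GEO's labels gave the groups, and every column matched 1 sample (0 unmatched). Of 23850 rows, 302 exact duplicates were removed. Rows that averaged 0.5 FPKM or more (14115 rows) were tested on log2(FPKM + 0.1) with limma 3.58.1 in R 4.3.3 (lmFit, then eBayes with trend), and p-values were adjusted by the Benjamini-Hochberg method over all rows at 10% FDR. A fold change on this scale understates that of low genes. F5, Slc4a5 and Otx2 were fitted with a minimum mean of 0.1 FPKM. The code was tested on simulated data. Relations to Ttr were tested by permuting libraries (100000 resamples, Python 3.11.15, scipy 1.17.1), and their p-values are not adjusted. That test treats libraries as exchangeable, which libraries of separate groups need not be. Levels were therefore also centred on group means, but centred values are not exchangeable either, and no permutation within groups was run.

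The members and the lists of further choroid plexus, ependyma, meninges and fibroblast, blood, endothelium, striatum, hippocampus, thalamus and hypothalamus, cortical excitatory neuron, astrocyte, microglia and oligodendrocyte genes were written by hand and chosen with earlier results of these data known. Named are the members, the targeted genes and Olig1, the 10 rows most like the members (1 of them is not reported here), and called or abundant genes of the lists. Other named genes were chosen after their values were seen. Alternatives were a pseudocount of 1 or 0.01, other filters, rescaling by median ratio, quantile normalization, robust eBayes, 1 model of the 4 groups, a replicate block, a 5% FDR and each library left out. Values without Dnmt3a control 3 and Dnmt3a CKO 3, ependyma sums without Pvalb and ratios on FPKM + 0.1 were added after seeing the data, as were the spread, order of means and list signs without Dnmt3a control 2.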

Additional observations from a re-analysis of the deposited data

How the results depend on the processing

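No marker gene passed the 10% FDR in either line under any alternative run. The number past it in the difference between the lines was 0 to 2 with 1 library left out, with 2 (Folr1 and Kcnj13) without Dnmt3a CKO replicate 3, and 1 without both replicates 3 of the Dnmt3a line. The cause was not tested. The median within-group SD of the marker genes was 0.428 with a pseudocount of 1 in place of 0.924, since a larger pseudocount compresses low levels (0.0759 over all rows), and 0.456 without both replicates 3 of the Dnmt3a line. With each library left out in turn, the log2 fold change in the Dnmt1 line crossed 0 for Ttr (-0.36 to 0.43), Aqp1 (-0.29 to 0.34), Clic6 (-0.17 to 0.48), Kl (-0.0292 to 0.28), Folr1 (-0.43 to 0.25), Sostdc1 (-0.28 to 0.0864), F5 (-0.28 to 0.10), Slc4a5 (-0.24 to 0.32) and Otx2 (-0.35 to 0.28), and in the Dnmt3a line for Ttr (-0.83 to 3.16), Clic6 (-0.36 to 1.43) and Otx2 (-0.0553 to 1.55). It also crossed 0 in the Dnmt1 line for Aqp1 with libraries rescaled by median ratio (0.0113) and for Slc4a5 with quantile normalization (-0.0209). The other 309 values of single genes kept their sign, and 27 did not. A minimum mean of 1 FPKM left 6 of the 10 genes in the test.

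The main fits did not pair samples by replicate number. Same-numbered CKO and control libraries deviated with r between -0.0792 and 0.0352, and differently numbered ones with r between -0.0927 and 0.107. These r show no shared deviation of same-numbered libraries, but cannot show whether such mice were paired in the experiment. With the replicate block 0 marker genes passed in each of the 3 comparisons, and over all rows 162 passed in place of 444 in the Dnmt1 line, 1 in place of 2 in the Dnmt3a line and 232 in place of 300 in the difference between the lines. With 3 mice per group, and the wide intervals of the marker genes, a change of moderate size in them could not be seen in either line.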
